A study of Mus musculus with 14 samples.

Results

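Lhx2 is a LIM-homeodomain transcription factor, and Ldb1, Lmo2, Lmo4, Tal1 and Lyl1 encode proteins of, or close to, the LIM-domain complex built around SCL (the product of Tal1). These 6 genes were taken by symbol from the 50686 genes counted in mouse HPC-LSK cultures, which are haematopoietic progenitor lines that resemble LSK cells, the bone marrow fraction without lineage markers that carries Sca-1 and Kit. All 6 had enough counts to be tested, with at least 1175 counts in every library. Enforced Lhx2 is a known way to establish progenitor lines of this kind, and the question put to the data was how much Lhx2 each library held and how the genes of its partner proteins stood beside it. Counted per gene, an introduced Lhx2 and the resident mouse gene cannot be told apart.

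LIM domains are zinc-binding folds that bind other proteins. Ldb1 holds LIM proteins through a short interaction domain and pairs with itself, so that it can join DNA-bound factors to one another. Lmo proteins consist of little more than LIM domains and do not bind DNA, and they share Ldb1 as a partner with LIM-homeodomain proteins such as Lhx2. In blood progenitors Ldb1 and Lmo2 bridge a Tal1 or Lyl1 heterodimer with an E protein to a GATA factor, a complex known for its part in stem cell maintenance and in the erythroid and megakaryocyte lineages.

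The lines were on a C57BL/6N background and differed in Cdk6, a cyclin D-dependent kinase, which was intact in wild-type (WT) and knocked out in KO lines. They were either untransformed, grown in IMDM on agarose plates with 12.5 ng/ml IL-6 and 2% stem cell factor, or transformed with BCR-ABL p210, the fusion kinase of chronic myeloid leukaemia, and grown without either cytokine. Transformation and medium changed together and cannot be told apart, and a mention of SCF in the p210 sample descriptions was not explained there. Of the 7 untransformed libraries 4 were WT and 3 KO, and of the 7 with p210 3 were WT and 4 KO, with 20270348 to 50303271 counts each, and 18105 to 20689 genes with a count. A second sequencing run was marked for WT untransformed replicates 2, 3 and 4, KO untransformed replicate 3 and KO p210 replicates 2 and 4. No WT p210 library had it. Run was thus unevenly spread over the groups, most of all for p210 in WT lines, and can be told apart from them only in part. In the descriptions 6 pairs of libraries, 3 WT and 3 KO, share genotype, code and letter across the states. These pairs are called lines here, although the labels do not say in words that code and letter name a line. Nothing in the labels shows replicates to be separate derivations, and p-values therefore cover only the spread among these libraries, which may be technical.

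Cdk6 checked the labels. It stood at 970 to 1305 CPM (counts per 1e6 counts of a library, its size scaled by the TMM method) in WT untransformed and 236 to 271 CPM in KO untransformed libraries. In p210 libraries it stood at 576 to 606 CPM in WT and at 326, 578, 245 and 163 CPM in KO. The library labelled KO p210 replicate 2, with 578 CPM, goes against its label, and results that involve KO p210 are therefore also given without it where they change. All 12 LSK and progenitor markers had some counts in every group, but several were low with p210, most of all in KO lines. The mean of Kit was 431 CPM (WT) and 259 CPM (KO) without p210, against 45.5 CPM (WT) and 31.4 CPM (KO) with it. In KO p210 libraries the means of Hoxa9, Slamf1, Hlf, Mecom and Flt3 were 0.034, 0.100, 0.190, 0.223 and 0.427 CPM. The WT p210 means of the same markers were 29.9, 3.28, 22.1, 41.7 and 1.42 CPM, with a wide spread (Hoxa9 from 0 to 81.7 CPM). Other markers were not low with p210. Cd34 had means of 596 CPM (WT) and 640.5 CPM (KO), and Cd48 of 232 CPM in both. With p210, 5 of 12 markers fell in WT and 8 of 12 in KO lines, and 0 rose (17.6% and 18.0% of all genes tested fell). The WT fall of Hlf lost its call in 20 of 29 alternative analyses (log2 fold change from -3.98 to -0.036). That of Angpt1 in KO lines was lost in 10 of 29. Neutrophil and monocyte markers, 13 or 14 of 14 with counts in each group and Ly6g at 0 in all but KO p210, summed to 308 to 10260 CPM in WT untransformed, 23040 to 31950 CPM in KO untransformed, 1893 to 6941 CPM in WT p210 and 6848 to 22000 CPM in KO p210 libraries. In these bulk samples fewer cells of a type and less RNA per cell cannot be told apart.

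**Figure D1:**
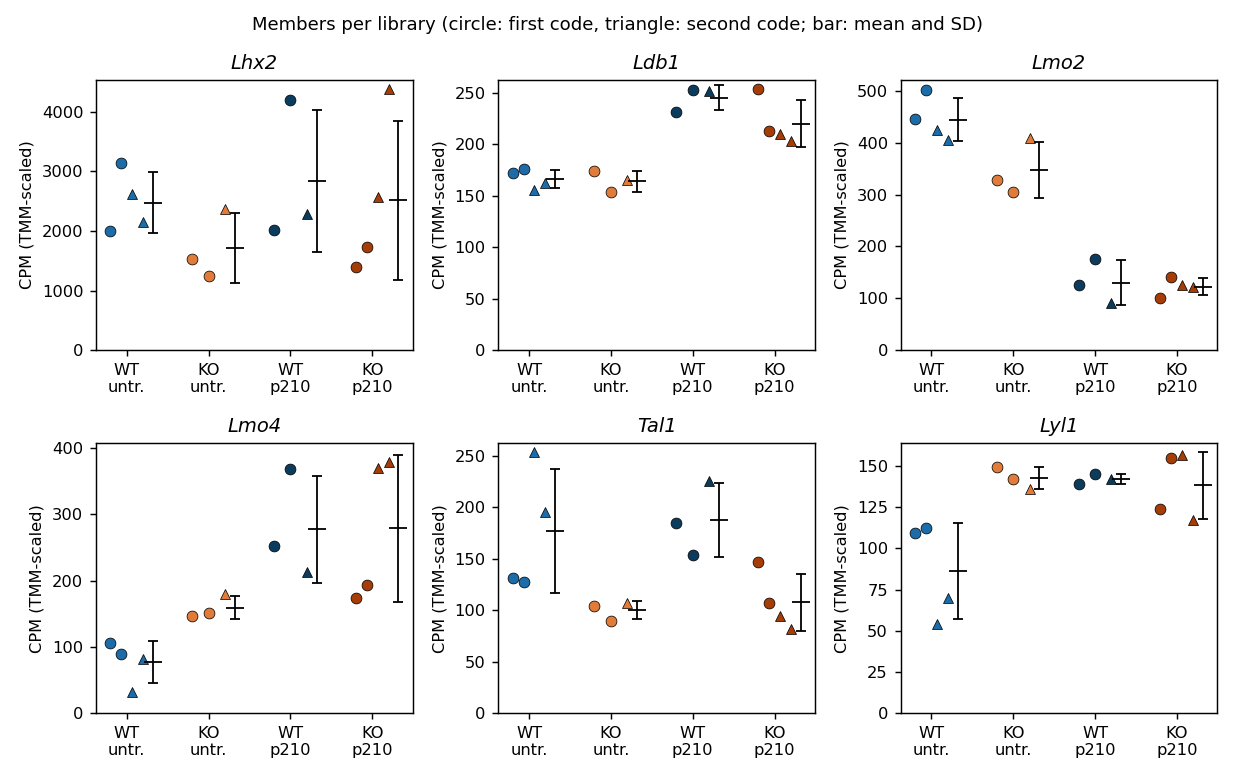
Each point is the level of a gene in a library, in CPM on a linear axis from 0, for the 4 groups (blue for WT, orange for KO, darker for p210). Circles and triangles mark the first and second code in the sample descriptions, and bars give the mean and SD. Lmo2 in the p210 libraries lies at or below 175 CPM, under all untransformed libraries, while the Lhx2 points of the 4 groups overlap.

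Lhx2 (ENSMUSG00000000247.11, GRCm38 chromosome 2, 38339281 to 38369733, plus strand) was the most abundant of the 6 transcripts in every library. It stood at 1992, 3135, 2626 and 2148 CPM in WT untransformed replicates 1 to 4 and at 1521, 1246 and 2376 CPM in KO untransformed replicates 1 to 3. In p210 lines the levels were 2017, 4200 and 2278 CPM in WT and 1387, 1724, 2573 and 4377 CPM in KO. The KO p210 libraries alone spanned 1387 to 4377 CPM, a wider range than that between the group means, and the ranges of all 4 groups overlapped.

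Group means were 2475 ± 516 CPM (SD, n = 4) in WT untransformed, 1714 ± 589 CPM (n = 3) in KO untransformed, 2832 ± 1192 CPM (n = 3) in WT p210 and 2515 ± 1338 CPM (n = 4) in KO p210 libraries. No contrast passed the edgeR quasi-likelihood test, whose p-values were adjusted by the Benjamini-Hochberg method over 14512 genes. The log2 fold change was -0.53 (95% interval -1.39 to 0.33, adjusted p = 0.381) for KO against WT in untransformed lines and -0.17 (-1.02 to 0.68, adjusted p = 0.859) in p210 lines. For p210 against untransformed it was 0.19 (-0.66 to 1.04, adjusted p = 0.723) in WT and 0.55 (-0.31 to 1.42, adjusted p = 0.297) in KO lines. Each of these 4 intervals reaches past 1 log2 unit in at least 1 direction, so a change of Lhx2 of that size was not excluded by these libraries. The interaction of genotype and transformation was 0.36 (-0.85 to 1.57, adjusted p = 0.799).

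Per transcript length, in the deposited TPM values, Lhx2 lay between 910 and 3044 TPM and ranked between place 27 and place 106 of all genes in a library. Of the 12 LIM-homeobox genes on the list drawn up for this family, Lhx2 alone passed the filter on low counts. Lhx1, Lhx3, Lhx6, Isl1, Lmx1a and Lmx1b had 1 to 8 counts in all 14 libraries together. Lhx4, Lhx5, Lhx8, Lhx9 and Isl2 had no count in any library, where a count of 0 allows up to 3 counts, or 0.0596 to 0.148 CPM, per library. The antisense genes Gm27197 and Gm13584, annotated across Lhx2, also had no count.

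A difference of Lhx2 between lines could not be tested within a state, with 1 library per line. Among WT lines sequenced in both states, the line of the first code and letter B held the most Lhx2 in each, at 3135 CPM untransformed and 4200 CPM with p210. Among KO lines, the line of the second code and letter B was the highest in each state, at 2376 and 4377 CPM. From untransformed to p210 the ratio within a line ran from 0.868 to 1.84, and it was above 1 in 4 of 6 lines. Over the 6 lines, after subtracting group means, the 2 states were correlated at Pearson r = 0.88 and Spearman rho = 0.77. This did not pass an exact two-sided permutation test of r over the 36 arrangements within genotypes (p = 0.111, adjusted p = 0.667 over the 6 genes). With so few arrangements, Lhx2 could not have passed on its own after this adjustment, whatever its r, so the test decides nothing. Of all genes tested, 3.71% had an r at least as high, and the median r was 0.06. The SD of Lhx2 within groups was 0.54 on the log2 scale, against a median of 0.24 over all genes tested, and 25.1% of genes were more variable.

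**Figure D2:**
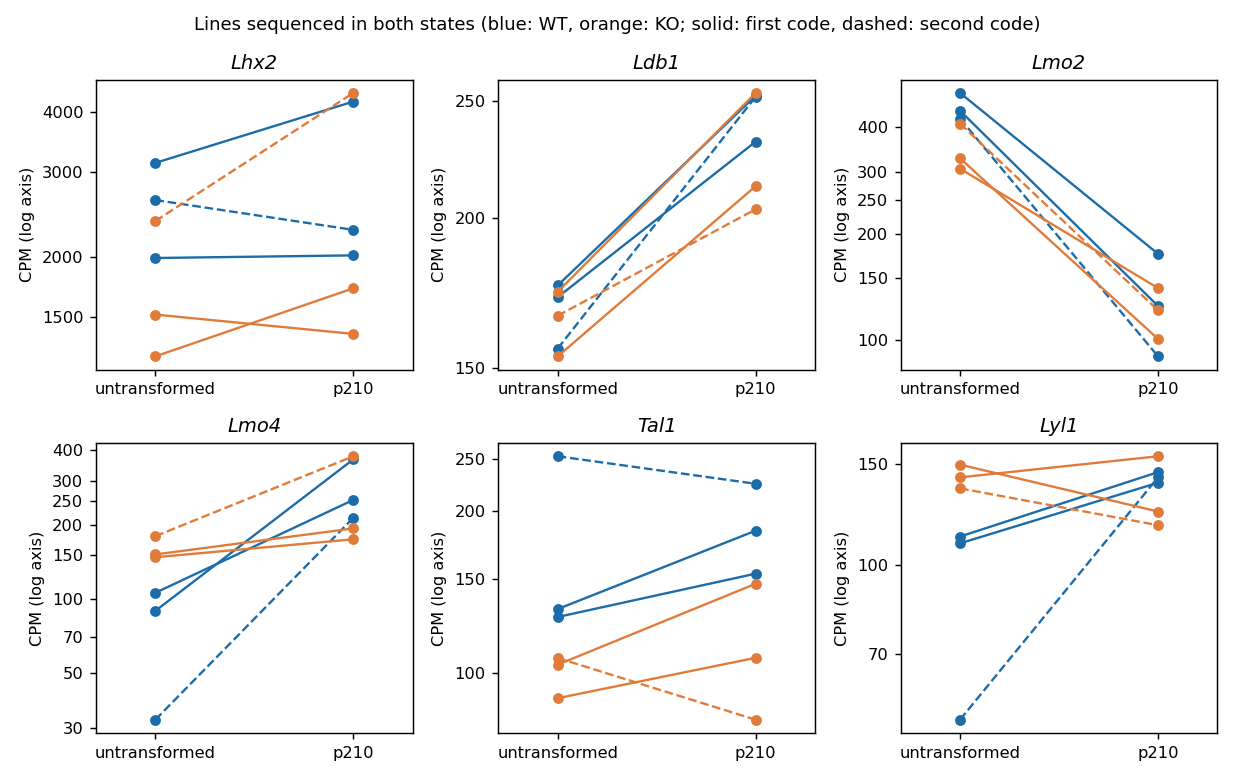
Levels of the 6 genes in CPM on log axes, untransformed and with p210, with a line joining the 2 libraries that the descriptions give to 1 cell line (3 WT in blue, 3 KO in orange, solid for the first code, dashed for the second). Ldb1 and Lmo4 are higher with p210 in 6 of 6 lines and Lmo2 in 0 of 6, while Lhx2, Tal1 and Lyl1 are higher in 4 of 6.

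Ldb1 (ENSMUSG00000025223.14, chromosome 19, 46032593 to 46045214, minus strand), the adaptor on which the LIM proteins assemble, was the steadiest of the 6. Untransformed libraries held 172, 176, 156 and 162 CPM in WT and 174, 153 and 166 CPM in KO, and p210 libraries held 231, 253 and 252 CPM in WT and 254, 212, 210 and 203 CPM in KO. Every p210 library stood above every untransformed library, and within each state the genotypes overlapped.

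Ldb1 rose with p210 by a log2 fold change of 0.56 ± 0.08 (SE, 1.48-fold, adjusted p = 0.000319) in WT and 0.42 ± 0.08 (1.34-fold, adjusted p = 0.00235) in KO lines. In both genotypes the libraries did not overlap, and the rise was seen in 6 of 6 lines with a ratio of 1.23 to 1.62. For KO against WT the log2 fold change was -0.02 (95% interval -0.20 to 0.16, adjusted p = 0.901) in untransformed and -0.16 (-0.34 to 0.02, adjusted p = 0.315) in p210 lines. When only second-code libraries entered, 1 KO untransformed against 2 KO p210, the KO rise lost its call (log2 fold change 0.32, adjusted p = 0.184). Pprc1, on the opposite strand overlapping Ldb1, held 1618 to 6053 counts, and the strand-specific counting set them apart from Ldb1.

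Lmo2 (ENSMUSG00000032698.15, chromosome 2, 103957986 to 103981878, plus strand) encodes the LIM-only bridge between the Tal1 heterodimer and Ldb1. It stood at 446, 501, 424 and 406 CPM in WT untransformed and 327, 306 and 410 CPM in KO untransformed libraries. With p210 it stood at 125, 175 and 89.9 CPM in WT and 101, 140, 125 and 121 CPM in KO libraries. No p210 library reached the lowest untransformed library.

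Lmo2 fell with p210 by 1.77 ± 0.20 on the log2 scale (3.41-fold, adjusted p = 8.05e-05) in WT lines and by 1.51 ± 0.19 (2.85-fold, adjusted p = 0.000174) in KO lines. The fall was seen in 6 of 6 lines, with ratios of 0.212 to 0.459. It kept its direction and its call in each of the 29 alternative analyses in both genotypes, including each that left out a single library. KO and WT did not differ beyond the spread, with log2 fold changes of -0.35 (95% interval -0.78 to 0.07, adjusted p = 0.227) in untransformed and -0.10 (-0.52 to 0.33, adjusted p = 0.839) in p210 lines. The interaction was 0.26 (-0.34 to 0.86, adjusted p = 0.695). Expression of LSK markers fell beside Lmo2, 5 of 12 in WT and 8 of 12 in KO lines, where 17.6% and 18.0% of all genes tested fell. The WT count includes Hlf, whose call was lost in 20 of 29 alternatives. The part of these markers in the Lmo2 result was not tested.

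Lmo4 (ENSMUSG00000028266.17, chromosome 3, 144188530 to 144205220, minus strand) encodes another LIM-only protein that binds Ldb1. Untransformed WT libraries held 106, 89.2, 32.3 and 81.4 CPM and untransformed KO libraries 147, 151 and 179.5 CPM. In p210 lines the levels were 252, 368 and 213 CPM in WT and 174, 193, 370 and 379 CPM in KO. WT untransformed libraries were the lowest, all below the other groups, and replicate 3 was the lowest of them.

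Lmo4 rose with p210 in WT lines by a log2 fold change of 1.85 ± 0.38 (3.60-fold, adjusted p = 0.00278). In KO lines the value was 0.81 (95% interval -0.04 to 1.65, adjusted p = 0.122), with overlapping libraries. It was higher with p210 in 6 of 6 lines, by 2.38-fold to 6.61-fold in the WT and by 1.18-fold to 2.11-fold in the KO lines, but the interaction of -1.04 (-2.21 to 0.13, adjusted p = 0.402) did not pass. Untransformed KO libraries stood above all WT libraries without passing the test (log2 fold change 1.05, 0.22 to 1.87, adjusted p = 0.0795), and in p210 lines the value was 0.01 (-0.82 to 0.84, adjusted p = 0.997). The KO rise with p210 passed without WT untransformed replicate 3, a library outside that contrast that shares its estimate of the spread (adjusted p = 0.0462), and the WT rise lost its call with the second code alone, at a log2 fold change of 1.88 (adjusted p = 0.115). Gm43445, which overlaps Lmo4 on the same strand, held 3 to 77 counts.

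Tal1 (ENSMUSG00000028717.12, chromosome 4, 115056426 to 115071755, plus strand) encodes SCL, a class II basic helix-loop-helix (bHLH) factor. The 4 WT untransformed libraries held 132, 127, 253 and 195 CPM and the 3 KO untransformed libraries 104, 89.8 and 107 CPM. With p210 it stood at 184, 153 and 225 CPM in WT and at 147, 107, 94.8 and 81.9 CPM in KO. KO libraries were below WT libraries of the same state without overlap, in both states.

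For KO against WT the log2 fold change of Tal1 was -0.82 ± 0.26 (95% interval -1.39 to -0.26) in untransformed and -0.80 ± 0.25 (-1.35 to -0.25) in p210 lines. Neither passed, at adjusted p = 0.0517 and adjusted p = 0.0963. In untransformed lines the value passed in 11 of 28 alternatives, among them DESeq2 (adjusted p = 0.0105), limma-voom (adjusted p = 0.0486) and library size scaling (adjusted p = 0.0333), and over all 28 the adjusted p ran from 0.0105 to 0.236. In p210 lines it passed in 2 of 28, with DESeq2 (adjusted p = 0.0270) and without KO p210 replicate 1 (adjusted p = 0.0466), over a range of adjusted p from 0.0270 to 0.230. Within the first code the p210 value was -0.42 and within the second code -1.36. With p210 the log2 fold change of Tal1 was 0.08 (-0.47 to 0.64) in WT and 0.10 (-0.45 to 0.66) in KO lines.

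Lyl1 (ENSMUSG00000034041.4, chromosome 8, 84701457 to 84704715, plus strand), the paralogue of Tal1 that also pairs with E proteins, stood at 109, 112, 53.9 and 70.05 CPM in WT untransformed libraries. The other groups held 149, 142 and 136 CPM (KO untransformed), 139, 145 and 142 CPM (WT p210) and 124, 155, 157 and 117 CPM (KO p210). Each of these 10 libraries was above the 4 WT untransformed libraries, and the other 3 groups overlapped.

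Lyl1 was higher in untransformed KO than in untransformed WT lines, by a log2 fold change of 0.72 ± 0.21 (1.65-fold, adjusted p = 0.0416), and rose with p210 in WT lines by 0.72 ± 0.21 (1.65-fold, adjusted p = 0.0190). Both calls share the WT untransformed libraries. In p210 lines the KO to WT value was -0.04 (95% interval -0.51 to 0.43, adjusted p = 0.944), and with p210 in KO lines it was -0.04 (-0.51 to 0.42, adjusted p = 0.892). The interaction of -0.76 (-1.42 to -0.10) did not pass (adjusted p = 0.306). The untransformed call was lost in 17 of 28 alternatives (adjusted p from 0.00977 to 0.241), among them leaving out WT untransformed replicate 3 (log2 fold change 0.53, adjusted p = 0.0689) or KO p210 replicate 2 (0.72, adjusted p = 0.0520). The p210 call was lost in 7 of 29, among them the fit with the cell line as a block (0.70, adjusted p = 0.0677), a term for a second sequencing run (0.58, adjusted p = 0.109) and leaving out WT untransformed replicate 4 (0.62, adjusted p = 0.0534). Nfix, which overlaps Lyl1 on the opposite strand, held 582 to 3699 counts, or 18.4% to 171% of the Lyl1 count, and was counted apart by strand.

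Promoters are shown for Tal1, Lyl1 and Lmo4, the 3 genes whose libraries did not overlap between genotypes in untransformed lines. Each is the 250 bases before the annotated start nearest to the gene start in the files, from RefSeq on GRCm38.p6, 5′ to 3′ on the strand of the gene. Capitals mark matches, on either strand, to the GATA core GATAA, the E-box CANNTG bound by bHLH dimers and the ETS core CCGGAA.
Tal1 promoter, chr4:115056176-115056425, plus strand: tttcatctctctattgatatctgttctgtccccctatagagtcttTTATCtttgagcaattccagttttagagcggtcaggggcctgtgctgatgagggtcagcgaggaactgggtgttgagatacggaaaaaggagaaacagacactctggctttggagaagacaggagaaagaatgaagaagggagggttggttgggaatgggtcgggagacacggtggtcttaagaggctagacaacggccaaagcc
Lyl1 promoter, chr8:84701207-84701456, plus strand: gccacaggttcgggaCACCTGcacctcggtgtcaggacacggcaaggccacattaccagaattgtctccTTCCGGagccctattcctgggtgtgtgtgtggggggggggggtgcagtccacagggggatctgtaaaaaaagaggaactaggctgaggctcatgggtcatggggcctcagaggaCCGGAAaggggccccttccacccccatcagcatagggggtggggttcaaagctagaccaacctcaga
Lmo4 promoter, chr3:144205256-144205505, minus strand: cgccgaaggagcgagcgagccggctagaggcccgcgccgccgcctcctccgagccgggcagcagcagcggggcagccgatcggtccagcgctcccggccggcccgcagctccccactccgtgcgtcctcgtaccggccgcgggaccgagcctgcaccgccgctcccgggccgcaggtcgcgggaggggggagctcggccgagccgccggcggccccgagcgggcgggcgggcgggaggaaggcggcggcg
The Tal1 window held 1 GATAA match and had a GC content of 48.8%. The Lyl1 window held 1 E-box and 2 CCGGAA matches at 60.0% GC. The Lmo4 window held none of the 3 motifs at 82.4% GC. RefSeq gave 1 further start for Tal1, whose window held none of the 3 motifs. It gave 2 further starts for Lmo4, whose windows overlap and hold the same single E-box. The matches thus depend on the start chosen. Over 32851 promoters of this length, 22.6% held GATAA, 66.2% an E-box and 12.0% CCGGAA, so a match to the E-box was common. These are matches of letters only.

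**Figure D3:**
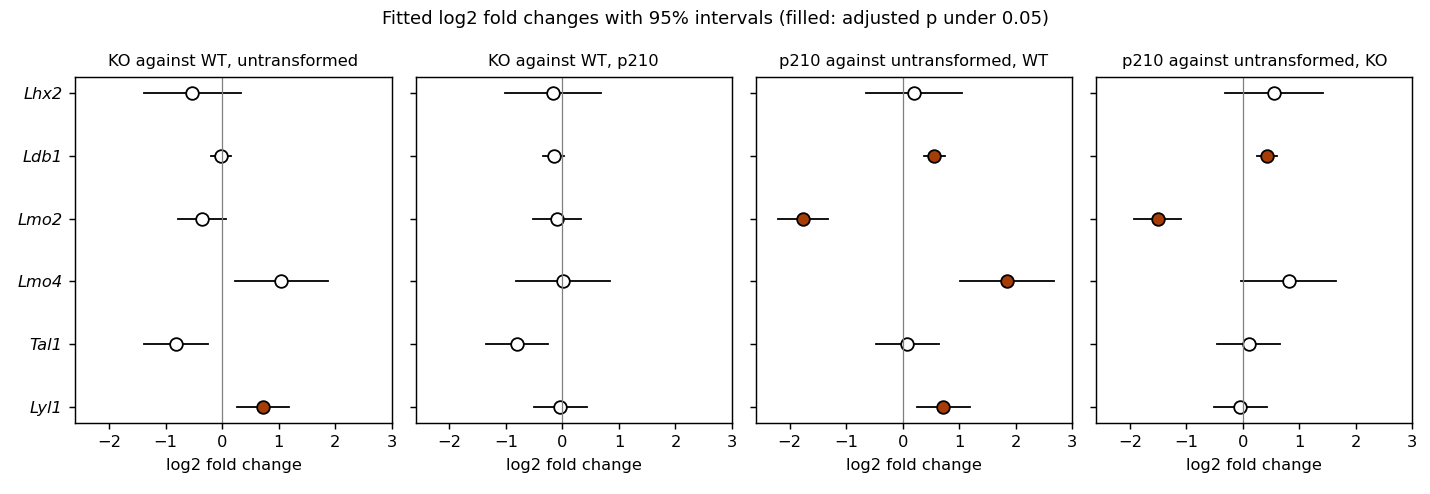
Fitted log2 fold changes (points) with 95% intervals (lines) of the 6 genes in 4 contrasts, filled where the adjusted p was under 0.05. Lmo2 passed downward with p210, at -1.77 in WT and -1.51 in KO lines, and every Lhx2 interval crosses 0.

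Counted together, 4 of 6 genes passed for p210 against untransformed in WT lines, where 39.5% of all genes tested did (21.9% higher and 17.6% lower). They were Ldb1, Lmo4 and Lyl1, which rose, and Lmo2, which fell, and the same 4 had libraries that did not overlap (45.0% of all genes). In KO lines 2 of 6 passed, Ldb1 upward and Lmo2 downward, beside 37.2% of all genes (19.2% higher and 18.0% lower), and 2 did not overlap (46.1%). With the cell line as a block, the background itself fell from 5727 to 3828 genes in WT and from 5395 to 3586 genes in KO lines. For KO against WT in untransformed lines 1 of 6 passed, beside 15.2% of all genes (8.73% higher and 6.5% lower), and this 1 (Lyl1) lost its call when either WT untransformed replicate 3 or the library labelled KO p210 replicate 2 was left out. Libraries of Lmo4, Tal1 and Lyl1 did not overlap there (39.7% of all genes).

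For KO against WT in p210 lines, edgeR called 0 of 6, beside 4.44% of all genes (0.882% higher and 3.56% lower), with 1 (Tal1) under 0.05 before adjustment. In DESeq2 1 passed and in limma-voom 0, and Tal1 was the 1 gene of the 6 without overlap (13.3% of all genes). Cdk6, the gene knocked out, did not pass with edgeR in this contrast either (adjusted p = 0.147). Missing calls there therefore do not show that a difference was absent. The interaction called 0 of 6 with edgeR, DESeq2 and limma-voom, beside 0.0345% of all genes with edgeR. Lyl1 alone had an unadjusted p under 0.05 there. The share of members called lay near or below that of all genes in the KO to WT contrasts and in KO lines with p210.

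One library stood apart in several of these genes and in lineage markers. WT untransformed replicate 3, lowest of all libraries in Lmo4 and Lyl1 and highest in Tal1, had the lowest neutrophil and monocyte sum (308 CPM, against 4187 to 10260 CPM in the rest of its group). It had the highest megakaryocyte sum of its group (7451 CPM, against 2634 to 5339 CPM) and the highest mast cell and basophil sum (7649 CPM, against 1531 to 3201 CPM). Over the 14 libraries, after subtracting group means, Lmo4 and Tal1 were correlated at r = -0.86 and Tal1 and Lyl1 at r = -0.70 (descriptions over libraries that share groups and lines). The part of other cell types in these levels was not tested.

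Per length the make-up of the LIM proteins' transcripts differed between states. The LIM-only gene Lmo1, on the partner list, had a level of 171 ± 48.2 CPM (WT) and 212 ± 66.6 CPM (KO) without p210, and of 82.1 ± 43.5 CPM (WT) and 71.2 ± 15 CPM (KO) with it. Lmo1 fell with p210 in WT lines (log2 fold change -1.05 ± 0.39, adjusted p = 0.0484) and in KO lines (-1.58 ± 0.38, adjusted p = 0.00699). The WT call of Lmo1 was lost in 14 of 29 alternatives (adjusted p from 0.00919 to 0.166), among them the replicate block by number (adjusted p = 0.0544), a term for the second run (-0.90, adjusted p = 0.166) and leaving out WT p210 replicate 3 (-0.69, adjusted p = 0.100) or any of 9 other libraries, and the KO call in 1 of 29. In TPM, Lmo4 was 0.0467 to 0.145 times Lmo2 in WT untransformed, 0.269 to 0.304 times in KO untransformed, 1.24 to 1.45 times in WT p210 and 0.844 to 1.91 times in KO p210 libraries. These ratios in untransformed KO lines lay above all in untransformed WT lines, and every p210 library lay above both. Lhx2 made up 56.6% to 68.1% of the summed TPM of Lhx2, Lmo1, Lmo2 and Lmo4 in WT untransformed libraries, 49.6% to 56.0% in KO untransformed, 69.9% to 80.9% in WT p210 and 67.7% to 83.1% in KO p210 libraries. The summed TPM of the 3 LIM-only genes was 6.43 to 9.19 times that of Ldb1 in untransformed and 1.74 to 3.61 times in p210 libraries.

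**Figure D4:**
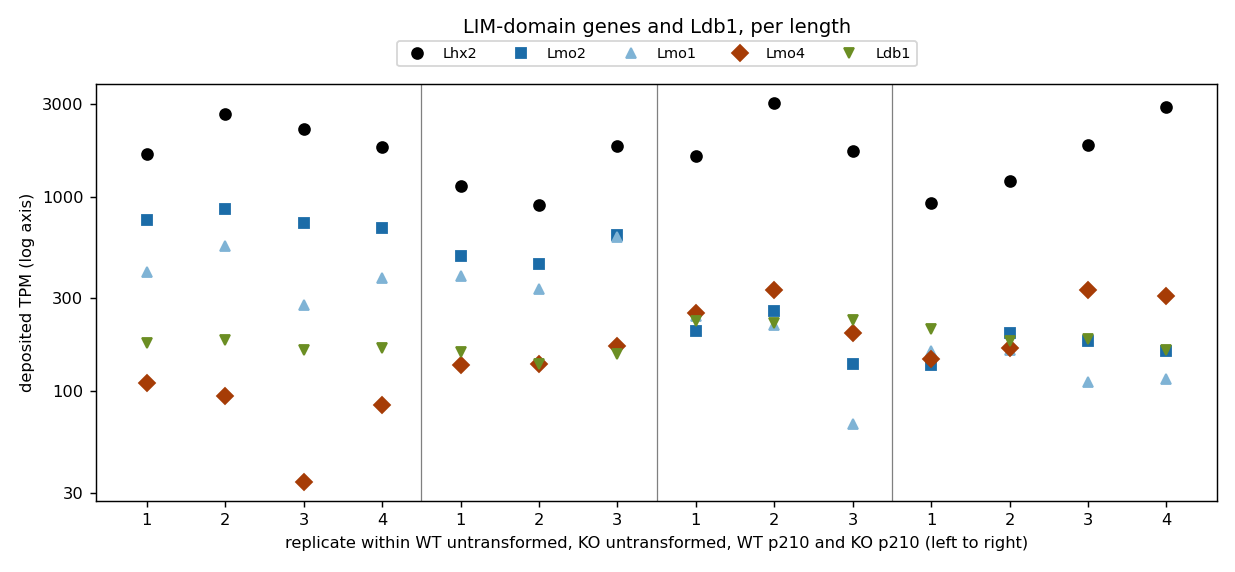
Deposited TPM values (log axis) of Lhx2, Lmo2, Lmo1, Lmo4 and Ldb1 in each of the 14 libraries, with the 4 groups parted by vertical lines. Lhx2 is above the other genes in every library, and Lmo2 is above Lmo4 in all untransformed libraries (by 3.29 to 21.4 times) but not in most p210 libraries.

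By mean TPM the order in WT untransformed libraries was Lhx2 (2092), Lmo2 (761), Lyl1 (178), Ldb1 (172), Tal1 (150) and Lmo4 (80.9). Lyl1, Ldb1 and Tal1 were not separated beyond their spread in that group. In KO p210 libraries the order was Lhx2 (1714), Lmo4 (238), Lyl1 (232), Ldb1 (185), Lmo2 (170) and Tal1 (74.0), and the 4 genes between Lhx2 and Tal1 overlapped from each to the next. Tal1 to Lyl1 ratios in TPM were 0.466 to 1.93 in WT untransformed, 0.260 to 0.323 in KO untransformed, 0.434 to 0.652 in WT p210 and 0.249 to 0.487 in KO p210 libraries. This ratio did not overlap between genotypes in untransformed lines, and did in p210 lines.

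Other genes around Ldb1 were mostly lower with p210. Of 5 further LIM-only, SSBP and RLIM genes tested, 4 fell in WT and 3 in KO lines, where 17.6% and 18.0% of all genes fell. Leaving out the library labelled KO p210 replicate 2 gave 3 and 2, and leaving out WT untransformed replicate 3 gave 5 and 3. Over the 8 tested genes of that list, members included, the median log2 fold change was -0.41 in WT and -0.28 in KO lines, against 0.02 and -0.01 over all genes. Ssbp3, one of the single-stranded DNA-binding proteins that protect Ldb1 from degradation, fell by 0.78 ± 0.20 on the log2 scale in WT (adjusted p = 0.00819) and by 0.73 ± 0.19 in KO lines (adjusted p = 0.0113, and 0.0540 without KO untransformed replicate 3). Rlim, the ubiquitin ligase that marks Ldb1 for degradation, fell in WT lines by 0.40 ± 0.10 (adjusted p = 0.00739) and had a value of -0.03 in KO lines (adjusted p = 0.827). Between genotypes none of these 5 passed in edgeR in either state, though before adjustment 2 had a p under 0.05 in untransformed and 1 in p210 lines, all lower in KO. With DESeq2 1 was called lower in untransformed lines, and with limma-voom none. Ldb2, the paralogue of Ldb1, had no count in any library.

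Of the 6 further bHLH and Id genes tested, 1 rose and 2 fell with p210 in WT lines, and 1 fell in KO lines. Of all genes tested, 39.5% passed in WT and 37.2% in KO lines, so these counts do not set the list apart. Tcf4, an E protein that pairs with Tal1 and Lyl1, had a level of 116 ± 13 CPM (WT) and 98.1 ± 2.94 CPM (KO) without p210, and of 69.4 ± 34.9 CPM (WT) and 24.8 ± 2.92 CPM (KO) with it. It was lower in KO than in WT p210 lines (log2 fold change -1.49 ± 0.24, adjusted p = 0.00615) and fell with p210 in both genotypes (-0.73 ± 0.24, adjusted p = 0.0312 in WT, and -1.98 ± 0.24, adjusted p = 0.000132 in KO). The WT fall lost its call in 9 of 29 alternatives, among them the block by cell line (adjusted p = 0.0570) and leaving out WT untransformed replicate 2 or 4 or WT p210 replicate 2 or 3. Tcf3, the E protein gene of E12 and E47, did not pass in any contrast with edgeR (adjusted p = 0.0632 for p210 in WT lines). With DESeq2, 2 of these 6 genes rose and 3 fell with p210 in WT lines, and 2 fell in KO lines. DESeq2 also called 2 lower in untransformed KO than in WT lines, where edgeR called 0. Id2, which binds E proteins and keeps them from DNA, rose with p210 in WT lines (2.47 ± 0.55, adjusted p = 0.00433), from 26.6 ± 5.35 to 148 ± 134 CPM, with a wide spread between WT p210 libraries (adjusted p = 0.0595 with the block by cell line).

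With p210, Gata1 and Gata2 moved in opposite directions. Gata2, the GATA factor of progenitors and mast cells, had a level of 368 ± 50.3 CPM (WT) and 204 ± 31.0 CPM (KO) without p210, and of 825 ± 189 CPM (WT) and 510 ± 111 CPM (KO) with it. It was lower in untransformed KO than in WT lines (-0.85 ± 0.20, adjusted p = 0.0183) and rose with p210 in WT (1.16 ± 0.19, adjusted p = 0.000698) and KO lines (1.32 ± 0.20, adjusted p = 0.000515). Gata1, its erythroid and megakaryocyte counterpart, fell with p210 in WT lines (26.3 ± 12.3 to 3.93 ± 3.21 CPM, adjusted p = 0.0128) and in KO lines (7.0 ± 1.88 to 0.198 ± 0.182 CPM, adjusted p = 0.000703). The GATA cofactor Zfpm1 fell in both (-2.03 ± 0.32 in WT and -1.02 ± 0.30 in KO, adjusted p = 0.0188 in the latter). With the block by cell line the WT fall of Gata1 (adjusted p = 0.0865) and the KO fall of Zfpm1 (adjusted p = 0.0576) did not pass. Without KO untransformed replicate 1 or 3 the KO fall of Zfpm1 did not pass either, nor did the Gata2 difference without KO untransformed replicate 2 (adjusted p = 0.0947). Mast cell and basophil markers, a list that includes Gata2, summed to 1531 to 7649 CPM in untransformed and 4673 to 14160 CPM in p210 libraries. The list was split in WT lines. Of 9 tested, Cpa3, Mcpt8 and Gata2 rose there with p210 and Mcpt4, Tpsb2 and Cma1 fell (median log2 fold change -0.71). In KO lines 3 rose and 0 fell (median 1.32). The markers that fell in WT lines spread widely over WT untransformed libraries, Mcpt4 from 0.201 to 1294 CPM. The Cma1 fall lost its call in 17 of 28 alternatives, among them without WT untransformed replicate 3 (-1.885, adjusted p = 0.447). Those of Mcpt4 and Tpsb2 were lost in 4 of 28 each. With the block by cell line the Cpa3 rise did not pass in WT (adjusted p = 0.0641) or KO lines (adjusted p = 0.0519). Of all genes tested, 39.5% passed in WT and 37.2% in KO lines. The part of mast cells and basophils in the Gata2 result was not tested.

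The whole list of partners and corepressors held 21 tested genes. With p210, 3 rose and 5 fell in WT lines and 6 rose and 6 fell in KO lines, with medians of -0.09 and 0.00 against 0.02 and -0.01 over all genes. The share of all genes that passed was 39.5% in WT and 37.2% in KO lines. In KO against WT lines, 1 was higher and 5 were lower in the untransformed state (15.2% of all genes passed). With p210, 1 was lower (4.44% of all genes passed). Spi1, the ETS factor of myeloid cells, was higher in untransformed KO lines (1.20 ± 0.21, adjusted p = 0.00735, and 0.0516 without KO untransformed replicate 2), and Kdm1a, the histone demethylase of the corepressor complex, was lower (-0.37 ± 0.06, adjusted p = 0.00666). Spi1 is expressed by neutrophils and monocytes, whose summed markers were higher in every KO than in every WT untransformed library. Of 13 such markers tested, 2 (Lyz2 and Itgam) passed as higher in untransformed KO lines, where 8.73% of all genes were higher. Mpo, with the highest mean of them there, did not pass (adjusted p = 0.218). The part of these cells in the Spi1 result was not tested. Mta2 and Chd4, subunits of the nucleosome remodelling and deacetylase complex, did not pass in any contrast with edgeR. With WT untransformed replicate 3 and KO p210 replicate 2 both left out, the KO against WT counts were 1 and 3 in untransformed lines and 0 in p210 lines, and in KO lines with p210 they were 4 and 6.

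**Figure D5:**
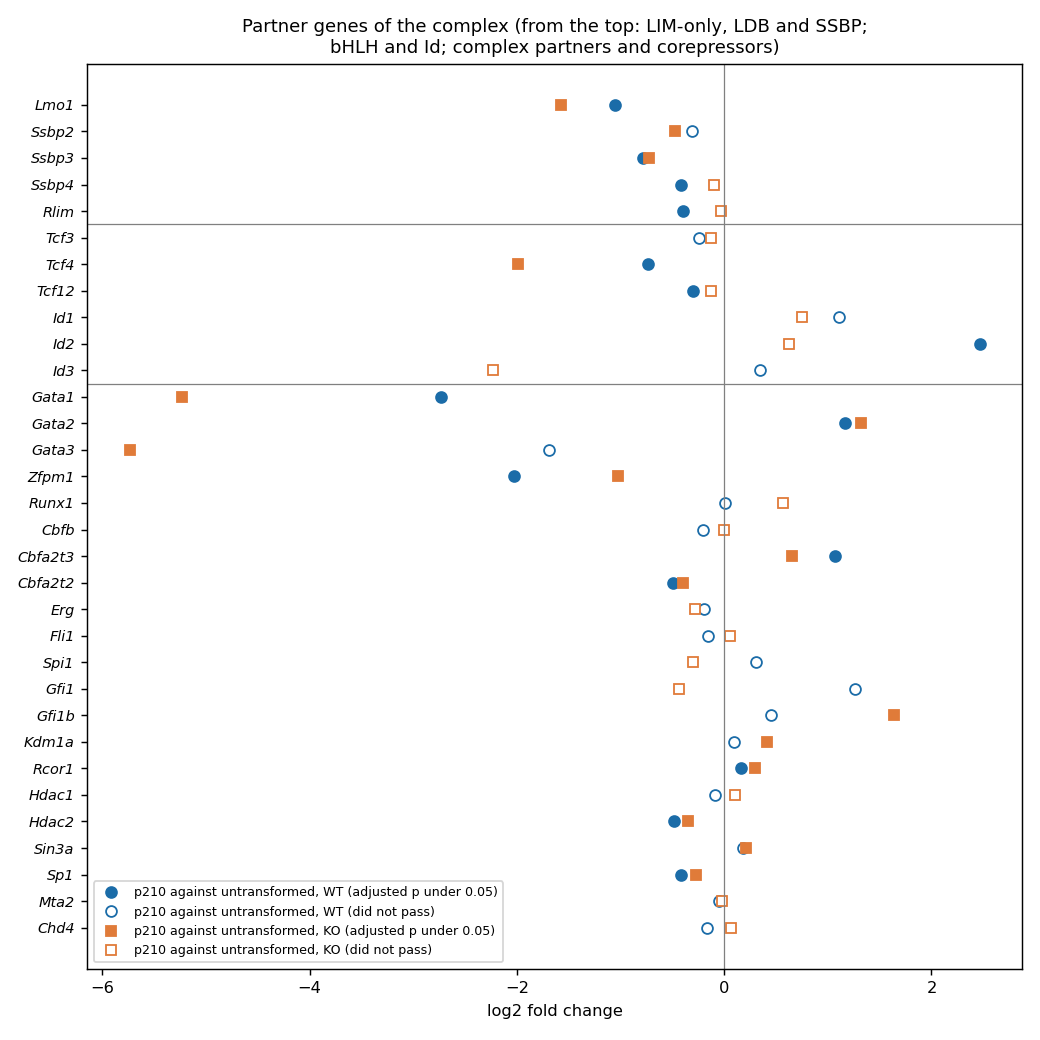
Log2 fold changes of p210 against untransformed for the tested partner genes, as circles for WT and squares for KO lines, filled where the adjusted p was under 0.05. Lmo1 and Ssbp3 lie left of 0 and filled in both genotypes, as do Tcf4, Gata1 and Zfpm1, while Gata2 lies right of 0 at 1.16 and 1.32.

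Genes known as targets of the Tal1 complex were mostly lower with p210. Of 19 tested, 11 fell and 2 rose in WT lines and 10 fell and 1 rose in KO lines, with medians of -0.87 and -0.58 against 0.02 and -0.01 over all genes. Of all genes tested, 17.6% fell and 21.9% rose in WT lines, and 18.0% fell and 19.2% rose in KO lines. Kit, the stem cell factor receptor, fell by 3.25 ± 0.31 on the log2 scale in WT (adjusted p = 2.99e-05) and by 3.04 ± 0.29 in KO lines (adjusted p = 3.31e-05). Hhex, a homeobox gene of early progenitors, fell by 0.87 ± 0.11 and 0.54 ± 0.11. Cdkn1a, the CDK inhibitor p21, rose by 1.77 ± 0.25 in WT (adjusted p = 0.000247) and by 1.60 ± 0.26 in KO lines (adjusted p = 0.000740).

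Between genotypes 5 of these 19 targets fell and 1 rose in untransformed KO lines, and 5 fell in p210 KO lines, with medians of -0.74 and -0.53 against -0.02 and 0.00 over all genes. Of all genes tested, 6.5% were lower and 8.73% higher in untransformed KO lines, and 3.56% were lower and 0.882% higher in p210 KO lines. The platelet genes Itga2b (-1.68 ± 0.34, adjusted p = 0.0110) and Vwf (-2.24 ± 0.59, adjusted p = 0.0284) were among the targets lower in untransformed KO lines. The Vwf call was lost in 10 of 28 alternatives, 5 of which left out a single untransformed library, and the Itga2b call without KO untransformed replicate 2 (adjusted p = 0.0688). Gp1ba (-3.63 ± 0.69, adjusted p = 0.0135) was among those lower in p210 KO lines, a call lost without WT p210 replicate 1 (adjusted p = 0.0545) or KO p210 replicate 2. These counts rested on single libraries: without WT untransformed replicate 3 the untransformed counts were 2 lower and 0 higher, and edgeR called 0 in p210 lines when the library labelled KO p210 replicate 2 was left out. With all libraries, 9 lower and 1 higher in p210 KO lines had a p under 0.05 before adjustment, and 7 lower and 1 higher passed in DESeq2 and 0 in limma-voom. Megakaryocyte markers, which share genes such as Itga2b, Gp1ba and Vwf with this list, summed to 2634 to 7451 CPM in WT and 1324 to 2012 CPM in KO untransformed libraries. With p210 these sums overlapped, at 2281 to 3332 CPM in WT and 1666 to 2536 CPM in KO libraries. Erythroid markers summed to at most 11.5 CPM in any library, with Alas2 and Slc4a1 at 0 in every group.

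The genes whose log2 CPM over the 14 libraries was most like that of Lhx2, among 9847 genes with a mean of at least 5 CPM, were Emid1 (r = 0.92), Cntn3 (r = 0.81) and Sptbn1 (r = 0.77). After subtracting group means they were Itgb3bp (r = 0.93), Emid1 (r = 0.93) and Ccar2 (r = 0.92), so Emid1 appeared both times. The mean of Emid1 was 188 CPM (WT) and 110 CPM (KO) without p210, and 185 CPM (WT) and 158 CPM (KO) with it. The nearest to Ldb1 was Cdkn1a (r = 0.97), to Lmo2 Pabpc1 (r = 0.98), to Lmo4 Dedd2 (r = 0.97), to Tal1 Ei24 (r = 0.97) and to Lyl1 Spns3 (r = 0.92). Over all libraries, Ldb1 and Lmo2 were correlated at r = -0.88, which fell to r = -0.10 after subtracting group means. These values describe libraries that share groups and lines.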

How the data were processed

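RNA sequencing of 14 libraries was read from the deposited files. The authors trimmed and aligned reads to GRCm38 (Trimmomatic and STAR, per the submitters' processing notes; versions not given in the sources used here). Exon reads per gene were counted by the authors with featureCounts 1.5.1, strand setting 2 and GENCODE M13, per the file headers. TPM values deposited in the same files served only to compare levels between genes. Of 50686 genes, 50376 were given a symbol.

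Differences in counts were tested in edgeR 4.0.16 and R 4.3.3 (quasi-likelihood F-test, robust, TMM scaling, filterByExpr with a minimum count of 10, which left 14512 genes, Benjamini-Hochberg adjustment, threshold 0.05). A single fit held all 14 libraries and had no term but the group, which makes the spread per gene common to all groups. CPM are on TMM-scaled library sizes. The procedure was tested on simulated counts, for KO against WT in untransformed lines only. These counts had the same spread for every gene and no lines or runs, so the test does not cover those features of the data. Alternatives used DESeq2 1.42.0, limma 3.58.1 (voom), other scalings and filters, terms for run, code, number and line, and left-out libraries. Leaving out WT untransformed replicate 3 and KO p210 replicate 2 together was chosen after seeing the data. Total counts of 20270348 to 50303271 make 3 counts worth 0.0596 to 0.148 CPM, and floors cover counting error only.

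The 6 genes and all lists were chosen with earlier results of these data known. The rule named the 6 genes in every comparison and Cdk6 as the label check. From each list it took up to 4 other genes with the smallest adjusted p past the threshold and up to 2 abundant ones that did not pass. For likeness it took the 3 genes with the highest correlation of log2 CPM (prior count 2). Not every gene so chosen is described, and Ldb2, the antisense and overlapping genes and the LIM-homeobox genes without enough counts were named outside it. Genotype, code and letter in the descriptions were read as naming the cell line, which the labels do not say in words and which pairs 6 lines across states. The deviations of the 2 libraries of a line from their group means correlated at 0.021 to 0.163 across genes, against -0.213 to 0.265 for all other pairs from different groups. Promoters were matched by symbol for 5 of the 6 genes.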

Additional observations from a re-analysis of the deposited data

How the results depend on the processing

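Over the 28 or 29 alternatives, Lmo2 kept both p210 calls and Ldb1 its WT call, while other calls moved. The number of the 6 genes past the threshold for KO against WT in untransformed lines was 1. It was 2 with DESeq2 size factors, upper quartile scaling, the 1 CPM filter and limma-voom, and 3 with DESeq2. It was 0 with no filter on low counts, a replicate block by number or by code and letter, the term for the second run, only the groups compared, either code alone, and with both WT untransformed replicate 3 and KO p210 replicate 2 left out. Leaving out single libraries gave 0 to 2 there, 0 to 1 in p210 lines (1 with DESeq2), 3 to 4 and 2 to 3 for p210 in WT and KO lines (2 and 1 with the second code alone), and 0 for the interaction.

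The background moved too. Genes called for KO against WT in untransformed lines were 1273 with no filter, 3499 with DESeq2, 1330 with the block by code and letter, 1042 with the run term, 3399 with only the groups compared, 435 with the first code, 0 with the second code (edgeR, 2466 at a p under 0.05 before adjustment), 920 with both libraries left out, and 181 to 2643 without single libraries. In p210 lines they were 1454 with DESeq2, 411 with limma-voom, 366 with the block by number, 421 with the run term, 5 with only the groups compared, 4 with the second code, 275 with both libraries left out and 285 to 736 without single libraries. For p210 in WT lines they were 3652 with the run term, 3725 and 1566 with the first and second code and 4668 to 5854 without single libraries. In KO lines they were 3586 with the replicate block by cell line, 73 with the second code and 3969 to 5742 without single libraries. The interaction count was 3 with library size scaling, 413 with DESeq2, 1 with the block by code and letter, 32 with the first code, 0 (edgeR) with the blocks by number and line, the run term, the second code and both libraries left out (1847, 1142, 1124, 1617 and 1440 at a p under 0.05 before adjustment), and 0 to 46 without single libraries. Scaling by library size put the median log2 fold change of all genes at -0.12 to -0.097 in the 4 pairwise contrasts (-0.016 to 0.019 with TMM), and moved the split of untransformed KO against WT calls from 1267 higher and 944 lower to 915 and 1657. Upper quartile scaling gave 1077 and 1362 there. For p210 the split of 3173 higher and 2554 lower in WT lines became 2516 and 3471 (2709 and 3265 with upper quartile scaling), and that of 2790 and 2605 in KO lines became 2093 and 3466, with library size scaling. For p210 KO against WT, 128 higher and 517 lower became 69 and 722.

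Signs changed only among values that had not passed. For KO against WT in p210 lines Lmo4 was -0.038 with upper quartile scaling, -0.085 with library size, -0.0038 with the 1 CPM filter, -0.047 with limma-voom, -0.078 and -0.046 with the blocks by number and by code and letter, and -0.76 with the first code. Lyl1 was 0.041 and 0.017 with these blocks and 0.060 with the run term, and Lhx2 0.60 and Lmo2 0.45 with the second code. Ldb1 in untransformed lines was 0.027 with the second code. For p210 in WT lines Tal1 was -0.033 with library size and -0.021 with the second code, and Lhx2 -0.094 with the second code. In KO lines Tal1 was -0.0099 with library size and -0.27 with the second code, and Lyl1 0.038 with the block by number and 0.011 with the second code. The Tal1 interaction was -0.059 with limma-voom, -0.045 and -0.071 with the blocks by code and letter and by line, -0.025 with the run term, -0.25 with the second code and -0.20 with both libraries left out. The Lhx2 interaction was -0.18 with the run term and -0.10 with the first code, and that of Ldb1 was 0.040 with the first code. Leaving out single libraries gave ranges that also crossed 0. Between genotypes these were -0.090 to 0.001 for Ldb1 in untransformed lines and, in p210 lines, -0.58 to 0.23 for Lhx2, -0.31 to 0.18 for Lmo2, -0.18 to 0.27 for Lmo4 and -0.11 to 0.031 for Lyl1. For p210 they were -0.21 to 0.37 for Lhx2 and -0.087 to 0.30 for Tal1 in WT lines, and -0.082 to 0.21 for Tal1 and -0.11 to 0.028 for Lyl1 in KO lines. For the interaction they were -0.050 to 0.76 for Lhx2 and -0.19 to 0.19 for Tal1. The cause of these changes was not tested. The block by cell line ended the call of Lyl1 for p210 in WT lines and no other call of the 6 genes.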
